A study of Homo sapiens with 15 samples.

Results

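The genes described are those for ubiquitin-conjugating enzymes and for the ubiquitin ligases whose symbols begin with UBE3 or UBE4. They were taken by symbol, as every row of the deposited table that begins with UBE2, UBE3 or UBE4 followed by letters or digits alone, and 38 of the 13056 genes in the table qualified. The 38 hold 32 UBE2 genes, 4 UBE3 genes and 2 UBE4 genes, and 4 hyphenated symbols that start with UBE were left out. The choice used symbols and no measured values.

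The measurements came from 15 RNA sequencing libraries of HEK293T cells, a human embryonic kidney line. Cells carried a short hairpin RNA against HDAC1, a histone deacetylase (shHDAC1, 2 libraries), PABPN1, the nuclear poly(A)-binding protein (shPABPN1, 2 libraries), PCBP2, a poly(C)-binding protein (shPCBP2, 2 libraries), SF3B4, a subunit of the U2 small nuclear ribonucleoprotein (shSF3B4, 2 libraries), U2AF2, the subunit of the U2 auxiliary factor that binds the polypyrimidine tract (shU2AF2, 2 libraries), or ZNF384, a zinc finger protein (shZNF384, 2 libraries). Control cells carried a control hairpin (shControl, 3 libraries). The labels do not state the hairpin sequences, the time of harvest or whether libraries of a group came from separate cultures, so p-values measure the spread between these libraries only, which may be technical.

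Ubiquitin is passed along a cascade. An activating enzyme, E1, charges a conjugating enzyme, E2, with ubiquitin, and a ligase, E3, brings the charged E2 to a substrate. Most E2 enzymes carry ubiquitin, while a few carry a related modifier such as SUMO, NEDD8 or ISG15. Ligases of the HECT class, which include UBE3A, take over the ubiquitin before handing it on, and U-box ligases, which include UBE4A and UBE4B, leave it on the E2. The transcripts of many of these genes can be cleaved and polyadenylated at more than 1 place in the 3′ untranslated region (3′ UTR). Cleavage usually follows a hexamer, most often AATAAA or ATTAAA, and use of a proximal site leaves out the RNA between it and the distal site.

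The annotated distal ends of the genes on which the results turn are shown here, because distal use is use of the outer end of the 3′ UTR. Whether the authors' distal site is the annotated end is not given. Each line gives 30 bases of the transcript strand around the hexamer, written 5′ to 3′ with the hexamer in capitals, from GENCODE release 29 on GRCh38.
UBE2H at chr7:129830740-129830769, minus strand: taaacttttttaAATAAAcgtgtatatacc
UBE2B at chr5:134391958-134391987, plus strand: cctgtctttaaaAATAAAagctattacttg
UBE2G1 at chr17:4269266-4269295, minus strand: gctctataaatcAATAAAtgatgacttaga
UBE2N at chr12:93405694-93405723, minus strand: agaagtgtaaatAATAAAaatctgtcatct
UBE2L3 at chr22:21624000-21624029, plus strand: tctgctgcccgtAATAAAaatgctctcaga
UBE2K at chr4:39782751-39782780, plus strand: ggaattcttaaaAATAAAtgcatgcatgtt
UBE2R2 at chr9:33920359-33920388, plus strand: aataaaatgtgaAATAAAatacctgtattg
UBE2M at chr19:58555716-58555745, minus strand: tcccaccaggctATTAAAggggaatgttac
UBE2T at chr1:202331662-202331691, minus strand: ttaaacctgaaaAATAAAtagtcatttaat
In these 9 genes the hexamer lay in the last exon and its first base stood 22 to 34 bases from the annotated end. UBE2M had ATTAAA and the other 8 had AATAAA. UBE2F, whose last exon lies at chr2:238041288-238042782 on the plus strand, had neither hexamer in its last 40 bases, and 14 other annotated ends fell in that exon.

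Distal poly(A) site usage was measured as an index, PDUI, which is named for a percentage and given here as a fraction from 0.001 to 1. A PDUI of 1 stands for transcripts that all end at the distal site, and a low PDUI for transcripts that mostly end at a proximal site. No read counts accompany the fractions, and the sequencing depth is therefore unknown. PDUI does not measure the amount of RNA, so neither the strength of each knockdown nor the identity of the cells by their marker genes could be checked. All 38 genes had a value in every library, against 11353 of the 13056 genes in the table, and the libraries lacked a value for 1.37% to 4.49% of genes. Mean PDUI over the 11353 complete genes was 0.533 to 0.585 in the 12 knockdown libraries, and 0.522, 0.56 and 0.561 in shControl libraries 1, 2 and 3. Because shControl library 1 lay below the other 14, the calls against shControl are also given without it. In the labels, nuc is appended to the names of the shControl libraries and to no other. If it marks another preparation, the preparation and the hairpin cannot be told apart in any comparison with shControl.

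The UBE genes used proximal sites more than most genes in the table. The median over genes of the mean PDUI in 15 libraries was 0.337 for the 38 and 0.593 for all 13056. A mean PDUI under 0.2 was found for 12 of the 38 (31.6%), against 15.1% of all genes. At the other end, 5 of the 38 (13.2%) had a mean of 0.8 or more, against 27.4% of all genes. The bins between held 13 genes from 0.2 to under 0.5 (34.2%, against 25.1% of all genes) and 8 genes from 0.5 to under 0.8 (21.1%, against 32.5%). These shares are descriptions and were not tested.

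The 3 highest means belonged to UBE3A, UBE2H and UBE3B. UBE3A, the HECT ligase whose maternal loss causes Angelman syndrome, averaged 0.975 over the 15 libraries and ranged from 0.89 to 1. UBE2H, the E2 of the CTLH ligase complex, averaged 0.949 and ranged from 0.81 to 1. UBE3B, another HECT ligase, averaged 0.943 and ranged from 0.77 to 1. The values of these 3 overlapped in range, so their order is not clear of the spread between libraries.

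The 3 lowest means belonged to UBE2Q1, UBE2QL1 and UBE2S. UBE2Q1 averaged 0.098 and ranged from 0.08 to 0.14, and UBE2QL1 averaged 0.0313 and ranged from 0.01 to 0.06. UBE2S, which extends ubiquitin chains for the anaphase-promoting complex, was listed at 0.02 in all 15 libraries. The range of UBE2Q1 did not overlap those of UBE2QL1 and UBE2S.

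**Figure D1:**
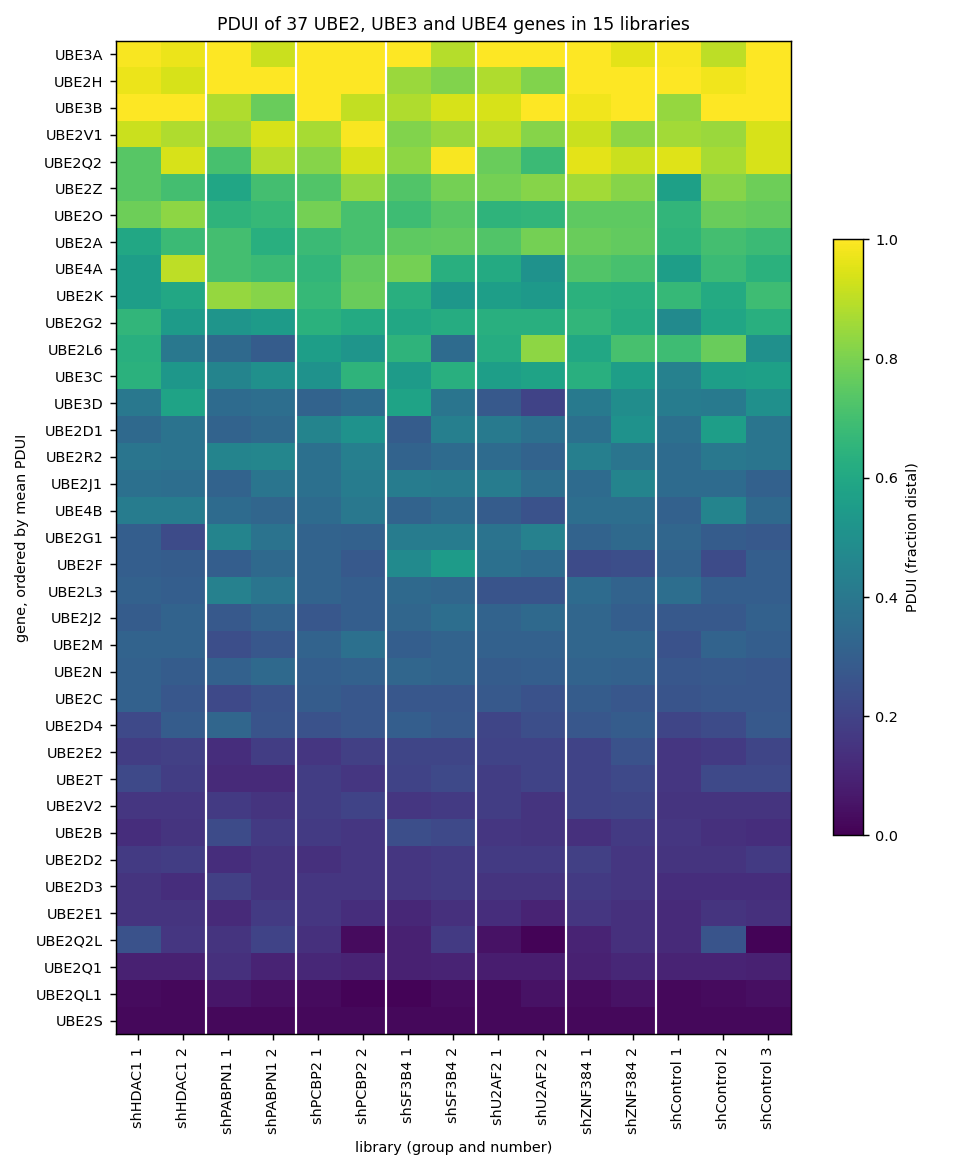
PDUI, as a fraction from 0 to 1 on the colour scale, of 37 genes (rows, ordered by mean) in the 15 libraries (columns, grouped by hairpin, with white lines between groups). The rows run from UBE3A, with a mean of 0.975, down to UBE2S, at 0.02 throughout, and most of a gene's libraries share a colour.

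The genes also varied less between libraries than the table as a whole. The median range over 15 libraries was 0.165 for the 38 and 0.22 for the complete genes, and the median within-group SD was 0.0325 against 0.0511. A range of at most 0.1 was found in 11 of the 38 (28.9%), against 19.2% of complete genes. The 38 also held more genes with a mean PDUI under 0.2 (31.6%, against 15.1% of all genes). Spread was not compared between genes of like PDUI, so the smaller spread cannot be told apart from the lower level. UBE2L6, the E2 that conjugates the interferon-induced modifier ISG15, had the widest range, from 0.29 to 0.83. Its libraries disagreed within groups too, with 0.65 and 0.35 in shSF3B4 and 0.69, 0.77 and 0.5 in shControl. UBE4A, a U-box ligase, read 0.56 and 0.9 in the 2 shHDAC1 libraries. Of the 570 values of the 38 genes, 23 were at 1, and none was at 0.001, the lowest value in the table.

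Several closely related enzymes differed widely in PDUI. UBE2A and UBE2B, the 2 human counterparts of yeast Rad6, averaged 0.706 and 0.168 over the 15 libraries, and the ranges of 0.6 to 0.79 for UBE2A and 0.13 to 0.24 for UBE2B did not overlap. Of the variants that pair with UBE2N to build chains, UBE2V1 averaged 0.882 and UBE2V2 averaged 0.169, and their ranges of 0.81 to 0.99 and 0.15 to 0.21 did not overlap either. UBE2G2, an E2 of endoplasmic reticulum associated degradation, averaged 0.599 and ranged from 0.48 to 0.66, while UBE2G1 averaged 0.347 and ranged from 0.23 to 0.45. UBE2Q2 averaged 0.863 and UBE2Q1 averaged 0.098.

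Of the other related genes, some overlapped in range and others did not. In the UBE2D family, whose enzymes work with many ligases, UBE2D2 and UBE2D3 averaged 0.161 and 0.153, below 0.262 for UBE2D4 and 0.403 for UBE2D1. The ranges of 0.13 to 0.19 for both UBE2D2 and UBE2D3 were the same, so these 2 were not told apart. UBE2E1 averaged 0.138 and UBE2E2 averaged 0.189, with overlapping ranges of 0.1 to 0.17 and 0.13 to 0.25. The membrane-anchored E2 enzymes UBE2J1 and UBE2J2 averaged 0.377 and 0.309. The NEDD8 E2 enzymes UBE2F and UBE2M averaged 0.327 and 0.307, and UBE2C, which starts chains for the anaphase-promoting complex, averaged 0.269 against 0.02 for UBE2S. UBE2L3 and UBE2L6 averaged 0.325 and 0.564, the HECT ligase UBE3C averaged 0.557, and UBE4A and UBE4B averaged 0.675 and 0.353 with ranges that did not overlap. Outside these families, the large hybrid enzyme UBE2O, which acts as both E2 and E3, averaged 0.724, UBE2Z averaged 0.752, UBE2K averaged 0.651, UBE2R2 averaged 0.385, UBE2N averaged 0.303 and UBE2T averaged 0.187. UBE3D averaged 0.403 with a range of 0.2 to 0.58. UBE2Q2L, a near copy of UBE2Q2, averaged 0.125 with a range of 0.01 to 0.26. How reads that match both copies were assigned is not given, so the values of both are uncertain.

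The annotated 3′ UTRs of the UBE genes were longer than those of the table. Of the 38 genes, 37 matched GENCODE release 29 by transcript identifier, and 36 of these had a coding sequence and a 3′ UTR of at least 50 bases. Among the 36, the UBE2J2 transcript is annotated for nonsense-mediated decay, and its 3′ UTR of 2136 bases exceeds its last exon of 1579 bases. The median 3′ UTR length of the 36 was 1942 bases, against 1336 bases over 10188 genes of the table. The lengths ran from 178 bases in UBE2T to 5409 bases in UBE3A. Across genes, Spearman's rho of mean PDUI with 3′ UTR length was 0.0698 in the 36 and 0.116 in the 10188. These are descriptions across genes, which are not independent replicates. The last 40 bases of the transcript held AATAAA in 22 of 37 (59.5%, against 58.8% of all matched genes), ATTAAA without AATAAA in 9 (24.3%, against 13.8%) and neither in 6 (16.2%, against 27.4%). The search covered the transcript strand only, AATAAA was taken where a transcript held both hexamers, and a match is a description of the letters. The last exon overlapped an exon of another gene in 6 of the 37, namely UBE3A, UBE2V1, UBE4A, UBE2F, UBE2N and UBE2D4. The labels do not state whether strand was used, so reads of these 6 and of their neighbours may not have been told apart.

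**Figure D2:**
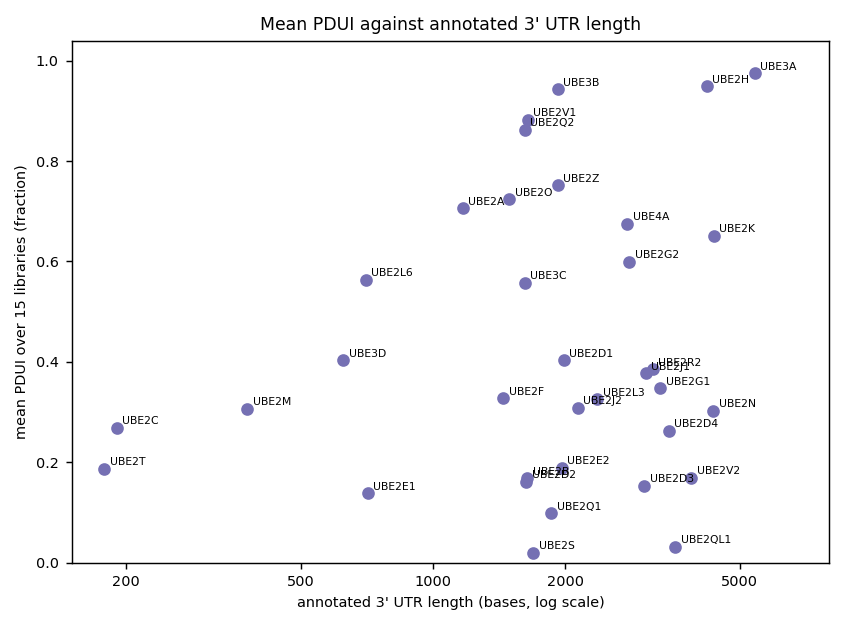
Mean PDUI over 15 libraries (fraction, vertical axis) against annotated 3′ UTR length (bases, log scale, horizontal axis) for 35 UBE genes, 1 point each. UBE3A, at 5409 bases and 0.975, and UBE2S, at 0.02, mark the extremes of the vertical axis, and genes with long 3′ UTRs appear at both high and low PDUI.

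Each knockdown was set against shControl to ask which genes changed site use when the regulator was reduced. The test was limma over all genes of the table with Benjamini-Hochberg adjustment, and genes with adjusted p below 0.05 are reported as called. The 6 comparisons share the 3 shControl libraries, so they are not independent of each other. Of the 38 genes, 8 (21.1%) were called in at least 1 of the 6 comparisons, against 13.2% of the 11449 genes tested in all 6. In the comparisons of any kind given here, 12 (31.6%) were called at least once, against 22.4% of all genes, and 26 were called in none.

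In shSF3B4 cells, the NEDD8 E2 UBE2F and the ubiquitin E2 enzymes UBE2B, UBE2G1 and UBE2N rose in distal use, and UBE2H fell. In all, 6 of 38 were called (15.8%, 5 higher and 1 lower), against 5.42% of the 12195 genes tested, 4.26% higher and 1.16% lower. The median difference of the 38 was 0.0125, against 0.0117 over all genes tested.

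UBE2F is an E2 for NEDD8 that works with the cullin CUL5. Its PDUI was 0.48 and 0.55 in shSF3B4, against 0.32, 0.23 and 0.3 in shControl. This was the largest rise among the 38 genes in shSF3B4, with means of 0.515 ± 0.0495 (SD, n = 2) in shSF3B4 and 0.283 ± 0.0473 (SD, n = 3) in shControl. The difference was 0.2317 (SE 0.0292, limma adjusted p = 0.0019), and the call was lost in 1 of 13 alternatives, a fit of these 2 groups alone (adjusted p from 0.00163 to 0.114 over the 13). An exon of the readthrough gene UBE2F-SCLY overlaps the last exon of UBE2F on the same strand. The difference of UBE2F-SCLY between shSF3B4 and shControl was 0.0417, with a limma adjusted p of 0.865. Whether the PDUI of UBE2F-SCLY concerns the same sites as that of UBE2F is not given.

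UBE2H, the E2 of the CTLH complex, moved the other way. Its PDUI was 0.85 and 0.81 in shSF3B4, against 1, 0.98 and 1 in shControl. Nearly all shControl transcripts ended at the distal site, and the value cannot exceed 1. The difference was -0.1633 (SE 0.0194, limma adjusted p = 0.00134), and none of 13 alternatives ended the call (adjusted p from 0.00121 to 0.0452).

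UBE2B, UBE2G1 and UBE2N moved by smaller amounts. UBE2B, a Rad6 enzyme that ubiquitinates PCNA and histone H2B with its ligases, had 0.24 and 0.22 in shSF3B4 and 0.16, 0.14 and 0.13 in shControl, a difference of 0.0867 (SE 0.0176, limma adjusted p = 0.0221). UBE2G1, which extends chains on substrates of cullin-RING ligases, had 0.42 in both shSF3B4 libraries and 0.33, 0.29 and 0.28 in shControl, a difference of 0.12 (SE 0.0286, limma adjusted p = 0.0454). UBE2N, the E2 that builds signalling chains in DNA repair and NF-κB activation, had 0.33 and 0.32 in shSF3B4 and 0.27, 0.28 and 0.27 in shControl, a difference of 0.0517 (SE 0.011, limma adjusted p = 0.0278). In all 3 genes the groups did not overlap. Of 13 alternatives, 7 ended the call for UBE2B and 9 each ended it for UBE2G1 and UBE2N, and without shControl library 1 UBE2N was no longer called. Leaving out either shSF3B4 library, shControl library 2 or shControl library 3 gave 3 calls, 2 higher and 1 lower. Centring the libraries on their medians left 1 gene higher, UBE2F, and 1 lower, UBE2H, and the differences of UBE2B, UBE2G1 and UBE2N were then 0.0583, 0.0917 and 0.0233. UBE2N overlaps NUDT4 on the other strand, which differed by 0.02 in the same comparison with a limma adjusted p of 0.414.

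**Figure D3:**
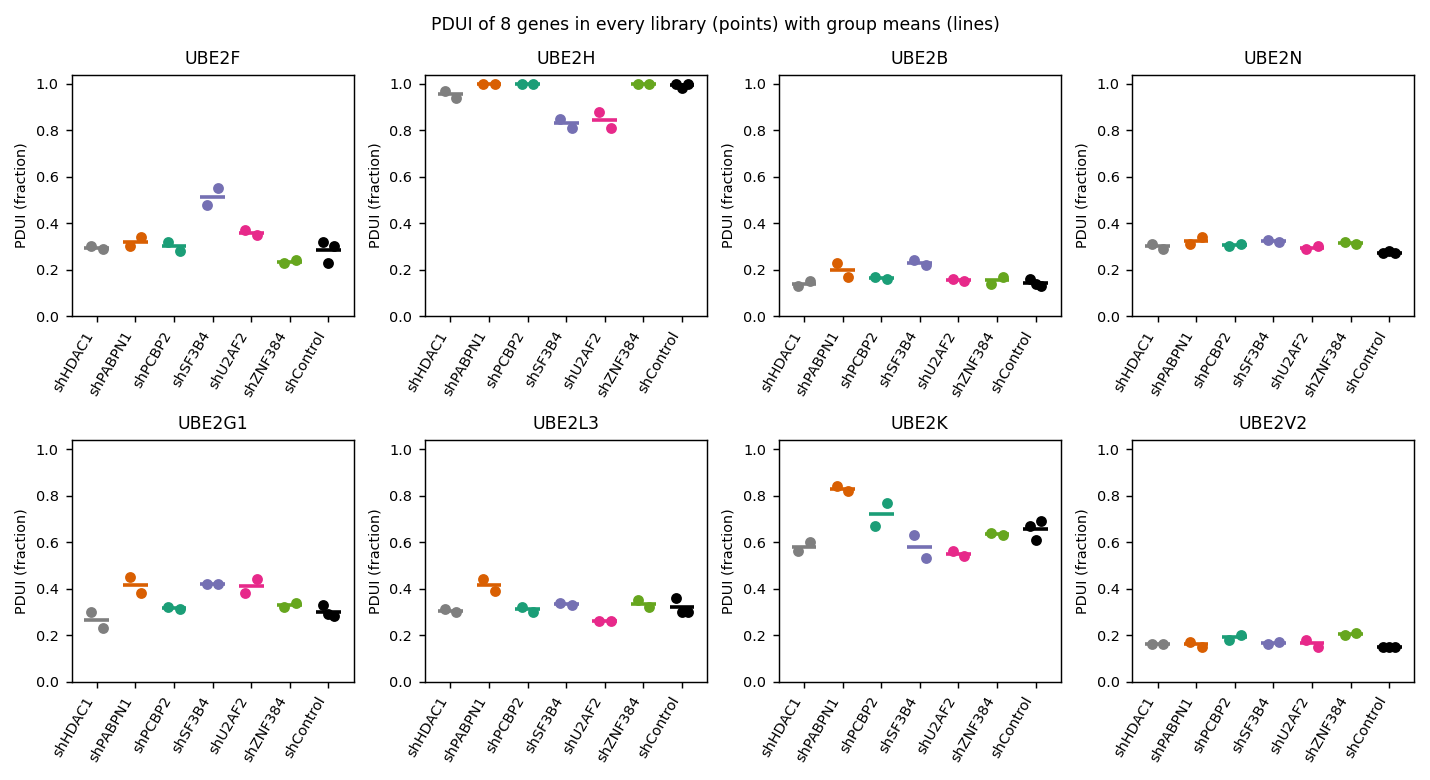
PDUI (fraction) of 8 UBE genes in every library, 1 point per library and a line at each group mean, with the 6 knockdowns left of shControl. UBE2F and UBE2B stand highest in shSF3B4 (means of 0.515 and 0.23), UBE2H stands lowest in shSF3B4 and shU2AF2 (means of 0.83 and 0.845), and UBE2K and UBE2L3 stand highest in shPABPN1 (means of 0.83 and 0.415).

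In shPABPN1 cells, UBE2N and UBE2L3 rose in distal use, and none of the 38 was called lower, while 18 of the 38 had a negative difference. In all, 3 of 38 were called (7.89%, all higher), against 4.72% of the 12278 genes tested, 3.99% higher and 0.725% lower. The median difference of the 38 was 0.0075, against -0.0093 over all genes tested.

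UBE2L3, an E2 that serves HECT and RBR ligases such as parkin, read 0.44 and 0.39 in shPABPN1 and 0.36, 0.3 and 0.3 in shControl. Its difference was 0.095 (SE 0.0212, limma adjusted p = 0.0374), and the lower shPABPN1 library lay just above the highest shControl library. UBE2N read 0.31 and 0.34 in shPABPN1 and 0.27, 0.28 and 0.27 in shControl, a difference of 0.0517 (SE 0.011, limma adjusted p = 0.0301). Of 13 alternatives, 7 ended the call for UBE2L3 and 7 ended it for UBE2N, and with the libraries centred on their medians no gene of the 38 was called. The differences did not shrink under centring, at 0.1167 for UBE2L3 and 0.0733 for UBE2N, with limma adjusted p of 0.166 and 0.178.

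Several genes had large differences in shPABPN1 that did not pass. UBE2K, an E2 that builds degradative chains, read 0.84 and 0.82 in shPABPN1 and 0.67, 0.61 and 0.69 in shControl (difference 0.1733, SE 0.0438, limma adjusted p = 0.0597). UBE2T, the E2 of the Fanconi anaemia pathway, read 0.12 in both shPABPN1 libraries and 0.16, 0.22 and 0.22 in shControl (difference -0.08, SE 0.0196, limma adjusted p = 0.0532). UBE2G1 read 0.45 and 0.38 in shPABPN1 and 0.33, 0.29 and 0.28 in shControl (difference 0.115, limma adjusted p = 0.0565). UBE2L6 read 0.34 and 0.29 in shPABPN1 and 0.69, 0.77 and 0.5 in shControl, which was the largest difference of the 38 genes in size, at -0.3383 (SE 0.1152), yet its limma adjusted p was 0.16. Without shControl library 1, 6 of the 38 (15.8%) were called, against 8.60% of all genes tested. The 6 included UBE2N and UBE2L3, with UBE2G1 higher by 0.13, UBE2T lower (difference -0.1) and UBE3B lower (difference -0.175), at limma adjusted p of 0.0392, 0.00757 and 0.0413 for these last 3. Without shPABPN1 library 2, 6 genes were called, all higher, and without shControl library 2 or library 3 the count was 1.

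In shU2AF2 cells, UBE2H fell, as 1 of 38 genes called (2.63%, against 7.27% of the 12362 genes tested, 5.88% higher and 1.39% lower). UBE2H read 0.88 and 0.81 in shU2AF2 and 1, 0.98 and 1 in shControl. The 2 groups did not overlap, which also held for other genes of the 38. The difference was -0.1483 (SE 0.0194, limma adjusted p = 0.00157). The call was lost in 1 of 13 alternatives, a fit of the 2 groups alone (adjusted p from 0.000626 to 0.0842 over the 13).

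Other genes with wide separations in shU2AF2 missed the threshold. UBE3D read 0.28 and 0.2 in shU2AF2 and 0.42, 0.41 and 0.5 in shControl (difference -0.2033, SE 0.0657, limma adjusted p = 0.115). UBE2G1 read 0.38 and 0.44 in shU2AF2 and 0.33, 0.29 and 0.28 in shControl (difference 0.11, SE 0.0286, limma adjusted p = 0.0528). UBE2Q2 read 0.77 and 0.68 in shU2AF2 and 0.95, 0.87 and 0.94 in shControl (difference -0.195, SE 0.0777, limma adjusted p = 0.206). In all 3 the groups did not overlap.

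In shZNF384 cells, UBE2V2 rose, as 1 of 38 genes called (2.63%, against 1.50% of the 12541 genes tested, 1.44% higher and 0.0638% lower). UBE2V2 is a catalytically inactive E2 variant that pairs with UBE2N. It read 0.2 and 0.21 in shZNF384 and 0.15 in each of the 3 shControl libraries, a difference of 0.055 (SE 0.01, limma adjusted p = 0.0387). The call was lost in 10 of 13 alternatives, the difference was 0.0067 after centring, and without shControl library 1 no gene of the 38 was called. The difference was positive in 31 of the 38, with a median of 0.0175 against 0.0233 over all genes tested.

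In shPCBP2 cells, limma called 0 of the 38 genes, against 1.17% of the 12434 genes tested, 1.05% higher and 0.121% lower. An unadjusted p under 0.05 was found for 4 of the 38 (10.5%), against 12.2% of all genes. The smallest p of the 38 belonged to UBE2V2, which read 0.18 and 0.2 in shPCBP2 and 0.15 in each shControl library (difference 0.04, SE 0.01, limma adjusted p = 0.131). In shHDAC1 cells, limma also called 0 of the 38, against 0.0243% of the 12371 genes tested. An unadjusted p under 0.05 was found for 1 of the 38, UBE2N (2.63%, against 5.98% of all genes). UBE2N read 0.31 and 0.29 in shHDAC1 and 0.27, 0.28 and 0.27 in shControl (difference 0.0267, SE 0.011, limma adjusted p = 0.818).

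**Figure D4:**
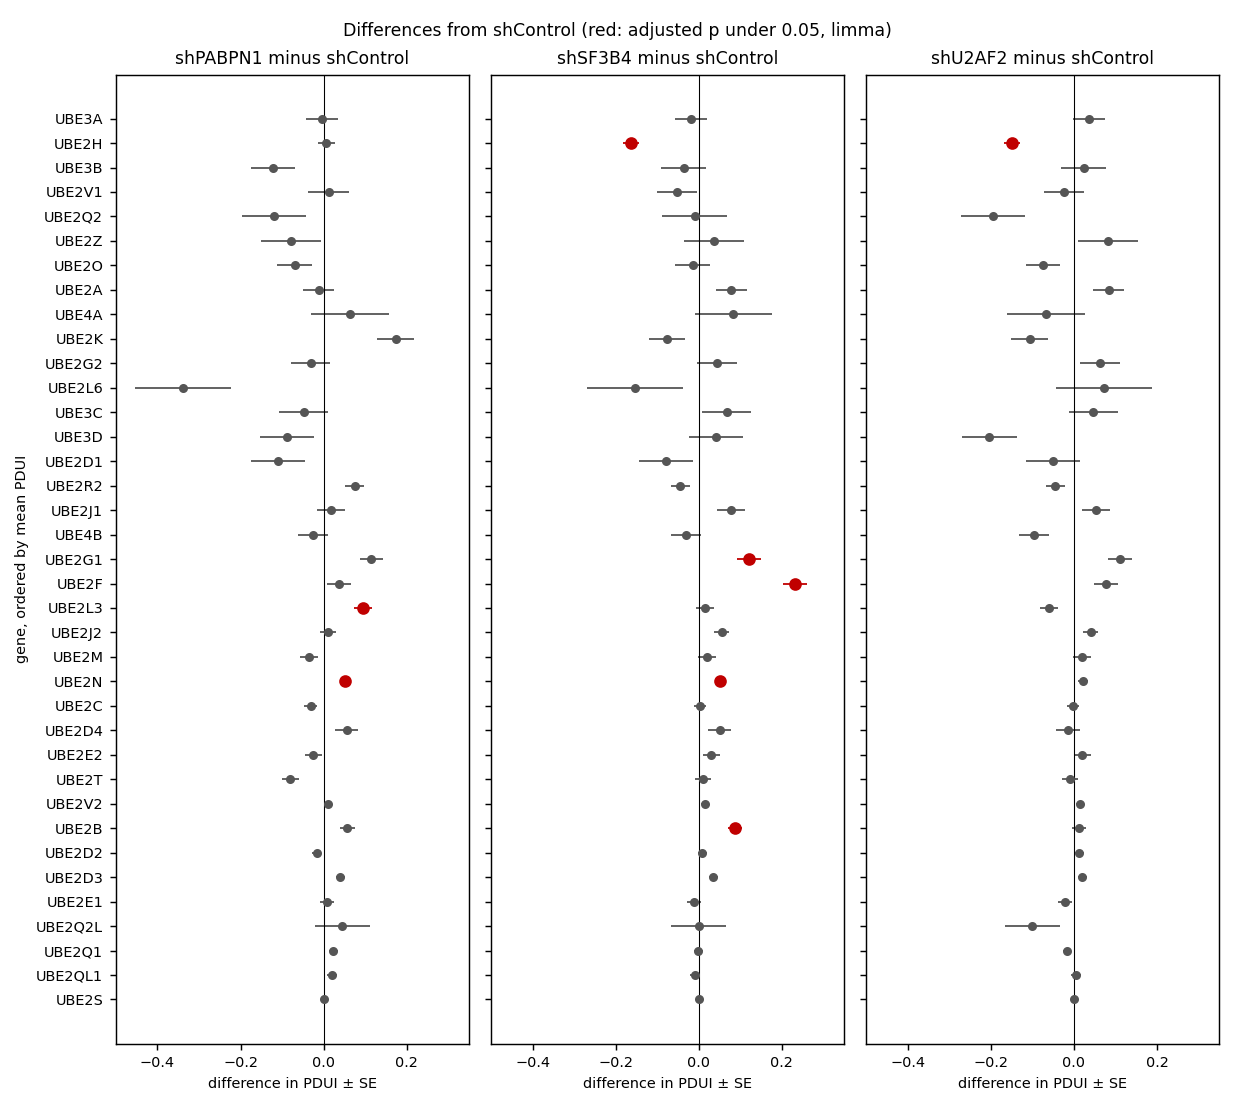
Difference in PDUI from shControl (horizontal axis, points, with bars of 1 SE that the marker hides where they are short) for 37 UBE genes, ordered by mean PDUI, in shPABPN1, shSF3B4 and shU2AF2. Red points mark the calls at an adjusted p under 0.05, 2 in shPABPN1, 5 in shSF3B4 and 1 in shU2AF2, and the wide bar of UBE2L6 in shPABPN1, at -0.3383, is not among them.

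UBE2A and UBE2D3 stood apart from shControl in several knockdowns without a call. UBE2A, the paralog of UBE2B, read 0.75 and 0.76 in shSF3B4, 0.73 and 0.79 in shU2AF2 and 0.77 and 0.76 in shZNF384, against 0.65, 0.7 and 0.68 in shControl. These 6 libraries all lay above the 3 of shControl, with differences of 0.0783, 0.0833 and 0.0883 at limma adjusted p of 0.356, 0.262 and 0.339. UBE2D3, a broadly acting E2, read 0.13 in each shControl library and 0.15 to 0.19 in every knockdown library except shHDAC1 library 2, at 0.13. Its largest difference was 0.04, in shPABPN1, with values of 0.19 and 0.15 there (SE 0.0106, limma adjusted p = 0.0717). Both genes were picked for these values.

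The mean of the 6 knockdowns was higher than shControl in UBE2N and lower in no called gene. In all, 2 of 38 (5.26%) were called, against 3.40% of the 11449 genes tested, 3.11% higher and 0.288% lower. For UBE2N the mean over the 6 knockdowns was 0.311 and that of shControl 0.273 (difference 0.0375, SE 0.0078, limma adjusted p = 0.0337). All 12 knockdown libraries of UBE2N, at 0.29 to 0.34, lay above the 3 shControl libraries, at 0.27 to 0.28. Of 22 alternatives, 14 ended the call for UBE2N. Leaving out any 1 of the 3 shControl libraries ended it, and after centring the difference was 0.0158.

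The comparisons among knockdowns do not use the shControl mean. The nuc libraries enter them only through the estimate of the spread, which all 15 libraries share. A moderated F-test in limma found differences among the 6 knockdowns in 6 of the 38 genes (15.8%), against 12.9% of the 11463 genes tested. They included UBE2H (adjusted p = 0.00121), UBE2F (adjusted p = 0.00454), UBE2K (adjusted p = 0.0214), UBE2L3 (adjusted p = 0.0224) and UBE2G1 (adjusted p = 0.0309). UBE2H and UBE2F were called in each of 19 alternatives of this test. The call was lost in 9 of the 19 for UBE2G1 and in 4 each for UBE2K and UBE2L3.

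Each knockdown was then set against the mean of the other 5, in which 10 of the 38 genes (26.3%) were called in at least 1 comparison, against 20.3% of the 11463 genes tested. In shSF3B4, UBE2F and UBE2B were higher and UBE2H was lower. In all, 4 of 38 (10.5%) were called, against 6.99% of all genes tested, 3.59% higher and 3.39% lower. UBE2F averaged 0.515 in shSF3B4 and 0.302 over the other 5 (difference 0.213, SE 0.0248, limma adjusted p = 0.00096), with the other 10 libraries from 0.23 to 0.37. UBE2B averaged 0.23 in shSF3B4 and 0.163 over the other 5 (difference 0.067, SE 0.0149, limma adjusted p = 0.0276), and shPABPN1 library 1, at 0.23, lay within the shSF3B4 values. UBE2H averaged 0.83 in shSF3B4 and 0.96 over the other 5 (difference -0.13, SE 0.0164, limma adjusted p = 0.00149). Of 19 alternatives, 6 ended the call for UBE2B and 0 ended those for UBE2F and UBE2H.

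UBE2H was lower in shU2AF2 as well, with a mean of 0.845 against 0.957 over the other 5 knockdowns (difference -0.112, SE 0.0164, limma adjusted p = 0.00368). The 2 shSF3B4 libraries of UBE2H, at 0.85 and 0.81, and the 2 shU2AF2 libraries, at 0.88 and 0.81, overlapped, while shHDAC1 had 0.97 and 0.94 and the remaining 6 knockdown libraries all read 1. UBE2L3 was also lower in shU2AF2, at 0.26 in both libraries, with a mean over the other 5 of 0.34 (difference -0.08, SE 0.018, limma adjusted p = 0.0313). Of 19 alternatives, 1 ended the call for UBE2H and 9 ended that for UBE2L3. After centring, neither was called, although the differences were about as large, at -0.114 for UBE2H (limma adjusted p = 0.0502) and -0.082 for UBE2L3 (limma adjusted p = 0.269). These 2 genes of 38 (5.26%) compare with 6.49% of all genes tested, 4.46% higher and 2.03% lower.

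In shPABPN1, 5 genes were higher and 2 lower than over the other 5 knockdowns, 7 of 38 (18.4%) against 11.2% of all genes tested, 4.19% higher and 7.05% lower. UBE2K, at 0.84 and 0.82 in shPABPN1, exceeded the other 10 knockdown libraries, which ran from 0.53 to 0.77 (difference 0.217, SE 0.0372, limma adjusted p = 0.00974). UBE2L3, at 0.44 and 0.39 in shPABPN1, exceeded the other 10, which ran from 0.26 to 0.35 (difference 0.106, SE 0.018, limma adjusted p = 0.00941). UBE2R2, a Cdc34-type E2 of SCF ligases, had 0.45 and 0.46 in shPABPN1, above the other 10 at 0.32 to 0.43 (difference 0.082, SE 0.0196, limma adjusted p = 0.0324). Of 19 alternatives, 9 ended the call for UBE2R2, 2 that for UBE2K and 1 that for UBE2L3. Against shControl, UBE2R2 was not called in shPABPN1 (difference 0.075, limma adjusted p = 0.12).

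Other genes called in shPABPN1 differed less from the other 5 knockdowns. UBE2H read 1 in both shPABPN1 libraries, with a mean over the other 5 knockdowns of 0.926 (difference 0.074, limma adjusted p = 0.0254). Its shPABPN1 mean differed from that of shControl, 0.993, by only 0.0067. In shPCBP2 and in shZNF384 UBE2H also averaged 1, with the same difference of 0.074 from the other 5. Neither was called there (limma adjusted p of 0.0789 and 0.0904). UBE2T read 0.12 in both shPABPN1 libraries, below the other 10 libraries at 0.16 to 0.22 (difference -0.076, limma adjusted p = 0.024). UBE2M, the E2 that carries NEDD8 to most cullins, read 0.24 and 0.27, below the other 10 at 0.3 to 0.37 (difference -0.068, limma adjusted p = 0.0446). Of 19 alternatives, 13 ended the call for UBE2M and 3 each ended those for UBE2T and UBE2H. Against shControl, UBE2M was not called in shPABPN1 (difference -0.035, limma adjusted p = 0.431), and shControl library 1 read 0.25. After centring of each library on its median, the 5 higher genes were still called and 2 further genes were called higher, so the split of 5 higher and 2 lower depends on the scaling. The differences of UBE2T and UBE2M were then -0.024 and -0.016, and neither was called. Without shPABPN1 library 1 limma called 0 of the 38, and without shPABPN1 library 2 it called 3, all higher.

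The last 3 knockdowns gave few calls against the other 5. In shHDAC1, 2 of 38 genes (5.26%) were lower, against 5.84% of all genes tested called and 5.29% called lower. UBE2G1, 1 of the 2, read 0.3 and 0.23, below the other 10 libraries at 0.31 to 0.45 (difference -0.113, SE 0.0243, limma adjusted p = 0.0274). These values overlapped those of shControl, at 0.33, 0.29 and 0.28 (difference -0.035, limma adjusted p = 0.928). The UBE2G1 means were 0.42, 0.41 and 0.415 in shSF3B4, shU2AF2 and shPABPN1, and 0.315 and 0.33 in shPCBP2 and shZNF384. In shPCBP2, 1 of 38 (2.63%) was lower, against 1.39% of all genes tested called, 0.724% higher and 0.663% lower. After centring, UBE2G1 was not called, with a difference about as large (-0.109, limma adjusted p = 0.191). Leaving out either library of shHDAC1 or of shPCBP2 left 0 calls in its own comparison, and without shPABPN1 library 2 the count in shHDAC1 was 4. In shZNF384, limma called 0 of the 38, against 0.646% of all genes tested. An unadjusted p under 0.05 was found for 5 of the 38 (13.2%), against 12.4% of all genes.

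Partners of these enzymes were described with 9 lists of the ubiquitin pathway, of which 90 or 91 genes could be tested in each comparison with shControl. Among the activating enzymes, 9 of which were tested, the calls in all comparisons belonged to UBA6, the E1 that charges UBE2Z. UBA6 rose to 0.21 ± 0.0141 (SD, n = 2) in shPABPN1 (limma adjusted p = 0.00491) and to 0.195 ± 0.0212 in shPCBP2 (limma adjusted p = 0.0453), and fell to 0.08 ± 0 in shSF3B4 (limma adjusted p = 0.00522) and to 0.1 ± 0 in shU2AF2 (limma adjusted p = 0.0279), against 0.143 ± 0.00577 (SD, n = 3) in shControl. After centring none of the 4 was called. The difference was then larger in size in shPABPN1 (0.0883, limma adjusted p = 0.0521), shSF3B4 (-0.0917, limma adjusted p = 0.0605) and shU2AF2 (-0.0667, limma adjusted p = 0.131), and smaller in shPCBP2 (0.0183, limma adjusted p = 0.754). UBE2Z itself was called in none of the comparisons, with group means of 0.645 to 0.84 in the knockdowns and 0.723 in shControl.

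Among the 11 modifier genes tested, URM1 was called in 2 knockdowns. URM1, a ubiquitin-like sulfur carrier, had 0.375 ± 0.0212 in shPABPN1 (limma adjusted p = 0.000537) and 0.29 ± 0.0141 in shU2AF2 (limma adjusted p = 0.0046), against 0.16 ± 0.02 in shControl. Both calls of URM1 were higher, and after centring the call in shPABPN1 held while that in shU2AF2 did not (difference 0.1067, limma adjusted p = 0.0534).

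Ligase genes gave a call each in several lists. In shSF3B4, the HECT ligase NEDD4L, of 20 other HECT ligases tested, had 0.17 ± 0.0141 against 0.0767 ± 0.00577 in shControl (limma adjusted p = 0.0395). In the same cells the cullin CUL4B, of 10 cullins and RING subunits tested, had 0.93 ± 0.0141 against 0.837 ± 0.0208 in shControl (limma adjusted p = 0.0132). In shU2AF2, CUL5, the cullin that UBE2F serves, had 0.43 ± 0.0141 against 0.6 ± 0.0173 in shControl (limma adjusted p = 0.0487), and BIRC6, of 8 E2-fold proteins with other names tested, had 0.275 ± 0.00707 against 0.403 ± 0.0351 in shControl (limma adjusted p = 0.0322). FZR1, an activator of the anaphase-promoting complex and 1 of 12 genes tested for it, had 0.17 ± 0.0283 in shU2AF2 and 0.1 ± 0.02 in shControl (limma adjusted p = 0.016). UBR2, 1 of 6 ligases of the N-degron pathway tested, had 0.875 ± 0.00707 in shPABPN1 and 0.42 ± 0.0656 in shControl (limma adjusted p = 0.00548). Of these 6 calls, those of BIRC6 and UBR2 held after centring, and those of NEDD4L, CUL4B, CUL5 and FZR1 did not. The centred difference of CUL5 was larger in size than the uncentred one (-0.1933, limma adjusted p = 0.0723), and those of NEDD4L, CUL4B and FZR1 were smaller, at 0.065, 0.065 and 0.0467. None of the 8 SUMO ligases was called by limma in any knockdown against shControl. In shSF3B4, 2 of the 8 had an unadjusted p under 0.05, against 16% of all genes tested. The median difference of the 8 was 0.0175 there, against 0.0117 over all genes tested. In shPABPN1, 1 of the 8 had an unadjusted p under 0.05, against 18.1% of all genes. The median of the 8 was 0.0233 there, against -0.0093 over all genes. None of the 7 ligases listed as partners of a given E2 was called by limma either. An unadjusted p under 0.05 was found for 4 of the 7 in shZNF384 and 1 in shSF3B4, against 13.8% and 16% of all genes. The median difference of the 7 was 0.115 in shZNF384 and -0.01 in shSF3B4, against 0.0233 and 0.0117 over all genes tested.

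Over the 9 lists, limma called 4 of 90 genes in shPABPN1, all higher, and 1 of 90 in shPCBP2, also higher. In shSF3B4 the calls were 2 higher and 1 lower of 91, and in shU2AF2 3 higher and 3 lower of 91. Of all genes tested, 4.72% were called in shPABPN1, 1.17% in shPCBP2, 5.42% in shSF3B4 and 7.27% in shU2AF2. In shHDAC1 and in shZNF384 limma called 0. There, 5 of 90 and 15 of 91 genes had an unadjusted p under 0.05, against 5.98% and 13.8% of all genes tested. The median difference of the activating enzymes was -0.0183 in shPABPN1 and -0.0083 in shSF3B4, against -0.0093 and 0.0117 over all genes tested. The modifiers had medians of -0.0183 in shPABPN1 and 0.005 in shU2AF2, the cullins and RING subunits 0.0117 in shSF3B4 and 0.0025 in shU2AF2, the other HECT ligases 0.01 in shSF3B4, and the N-degron ligases 0.0183 in shPABPN1. The median over all genes tested in shU2AF2 was 0.0117. The lists were chosen with earlier results in view, and no list was tested against other genes.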

How the data were processed

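PDUI values were deposited by the authors as fractions, 1 value per transcript and library, on build hg38 per the submitters' processing notes. Which aligner, site caller and annotation produced them is not given in the sources used here. Per the labels' protocols, kits for nuclear and for total RNA were used, oligo(dT) beads enriched the mRNA and a NEBNext Ultra kit served for library construction. Libraries were grouped by title. The shSF3B4 titles and column names number the libraries differently, so those library numbers are only names.

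The deposited fractions were tested, with no pseudocount or scaling, by limma 3.58.1 (R 4.3.3). All 15 libraries were fitted with 1 mean per group and eBayes with a variance trend, leaving 8 residual and 1.06 prior degrees of freedom. A gene was tested against shControl where both knockdown libraries and at least 2 shControl libraries had a value, and among knockdowns where all 12 had one. Tests were two-sided, with Benjamini-Hochberg adjustment over all genes tested in each comparison. The fit was tested on simulated data.

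The genes, the 9 pathway lists and the tests were chosen with earlier results of these data known. Named with values in every library are genes called in any comparison and the 5 of smallest p in the F-test. Near misses and outlying genes (UBE3D, UBE2Q2, UBE2L6 and UBE4A among them) were chosen after their values were seen. Of the genes tested, 1 of the 38 and 1 modifier gene are counted in the totals but not reported here. Pathway genes are named where called against shControl, at most 3 per list and knockdown. Of the 38 transcripts, 37 matched GENCODE release 29, 39.5% of the 38 with the same version, and UBE4B had no match. Sequences are those of GENCODE transcripts. Alternatives were centring of the libraries, an arcsine square root scale, no variance trend, a fit of the compared groups alone, 2 filters on genes, entries at 0.001 as missing, a replicate block and leaving out each library.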

Additional observations from a re-analysis of the deposited data

How the results depend on the processing

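Among the called differences, the ones recomputed gene by gene, none changed sign under the alternatives tried, and the gene-level calls of UBE2F and UBE2H among the 6 knockdowns held in all 19. Counts of called UBE genes moved more, and the cause was not tested. Each count is given here by alternative, without the share of all genes tested unless stated. Calls over all genes tested moved too, so a changed count need not be particular to the UBE genes. Centring the libraries left 0 in shPABPN1, 2 in shSF3B4 and 0 in shZNF384 against shControl, 0 each in shHDAC1, shPCBP2 and shU2AF2 against the other 5 knockdowns, and 0 for the mean of the 6. In shZNF384 against shControl, centring left 0 calls among all 12541 genes tested. In the other comparisons just listed, it still called genes elsewhere in the table. The arcsine scale gave 5 in shPABPN1, 2 in shPCBP2 against the other 5, and 1 for the mean of the 6. Without a variance trend there were 0 in shZNF384 and 1 for the mean of the 6. A fit of the compared groups alone gave 0 in shPABPN1, 2 in shSF3B4, 0 in shU2AF2 and 0 in shZNF384. Over all genes tested, that fit called 0 of 12278 in shPABPN1 and 5 of 12541 in shZNF384. These 2 zeros therefore do not set the UBE genes apart. In shSF3B4 and shU2AF2 the fit still called genes elsewhere in the table. Genes complete in all libraries gave 5 in shPABPN1 and 2 in shU2AF2. Genes with some spread gave 1 in shPABPN1, 0 in shZNF384, 4 in shPABPN1 against the other 5, 1 in shU2AF2 against the other 5, and 0 for the mean of the 6.

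A replicate block gave 1 called UBE gene in shPABPN1, 3 in shSF3B4 and 0 in shZNF384 against shControl, 1 in shHDAC1 and 0 in shPCBP2 against the other 5, and 0 for the mean of the 6. In the lists, the block gave 2 calls for activating enzymes, 0 for E2-fold proteins, 0 for other HECT ligases, 0 for cullins, 0 for the anaphase-promoting complex and 1 for partners of a given E2. Across genes, the difference between libraries 1 and 2 of each knockdown correlated with that of shControl at 0.00586 to 0.0468. Knockdowns were not correlated with each other, so a batch shared by equal numbers among them was not examined. For shSF3B4 the numbers are only names, and its correlation cannot decide the question.

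Over leaving out each library in turn, the count of called UBE genes against shControl ran from 1 to 6 in shPABPN1 and from 3 to 5 in shSF3B4, was 1 throughout in shU2AF2 and 0 throughout in shZNF384, shHDAC1 and shPCBP2. Against the other 5 it ran from 0 to 4 in shHDAC1, 0 to 7 in shPABPN1, 0 to 2 in shPCBP2, 3 to 4 in shSF3B4, 1 to 3 in shU2AF2 and 0 to 1 in shZNF384. It ran from 0 to 2 for the mean of the 6 and from 5 to 7 among the knockdowns. Where 1 library of a knockdown was left, it was assumed to vary like the other groups.

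Among the lists, centring gave 0 calls for activating enzymes, 1 for modifiers, 0 for other HECT ligases, 0 for cullins and 0 for the anaphase-promoting complex. The arcsine scale gave 2 for other HECT ligases and 3 for UBR ligases, no trend gave 0 for other HECT ligases, and genes with some spread gave 0 for cullins. A fit of the compared groups alone gave 2 for activating enzymes, 2 for modifiers and 0 each for E2-fold proteins, cullins, the anaphase-promoting complex and UBR ligases. Complete genes gave 2 for E2-fold proteins and 2 for UBR ligases, and entries at 0.001 as missing gave 2 for UBR ligases. Leaving out libraries gave 2 to 6 for activating enzymes, 4 to 6 for modifiers, 0 to 2 for E2-fold proteins, 0 to 4 for other HECT ligases, 1 to 2 for cullins, 0 to 2 for the anaphase-promoting complex, 0 to 1 for SUMO ligases, 1 to 3 for UBR ligases and 0 to 1 for partners of a given E2. Depth is unknown, so its limit on these values cannot be given.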
